A study of Saccharomyces cerevisiae with 8 samples.

Results

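Nucleotides 2800 to 2999 of yeast 25S ribosomal RNA (rRNA) make up about the 3′ part of domain V, with most of the peptidyl transferase centre and the A loop. They were taken from the deposited table by position, which gave 200 of 5475 rRNA nucleotides, 49 A, 40 C, 51 G and 60 U. Purified 80S ribosomes of *Saccharomyces cerevisiae* were pre-incubated in vitro with or without drug, then exposed to dimethyl sulfate (DMS), and the mutation rate of each nucleotide (the share of reads with a mismatch) was measured by sequencing. There were 8 libraries, 1 per condition. The controls were untreated ribosomes (no DMS), ribosomes given 90 mM DMS alone (no addition) and ribosomes given 90 mM DMS plus dimethyl sulfoxide (DMSO), a solvent. The drug libraries, also with 90 mM DMS, held agelastatin A (AglA), a sponge alkaloid, at 0.5 and 1.0 mM, or cycloheximide (CHX), an elongation inhibitor, at 10, 50 and 1000 µM. The treatment time in the labels is 8 min for every library. The labels name neither strain nor growth conditions, the solvent of CHX is not given, and the ribosomes carried whatever tRNA or mRNA was left after purification, which the labels do not describe.

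The peptidyl transferase centre is a ring of RNA in the large subunit where the amino acid on the A-site tRNA is joined to the peptide on the P-site tRNA. The A loop, at the tip of helix 92, pairs with the CCA end of the A-site tRNA. Beside it lies the A-site cleft, formed by the nucleotides called A2451 and C2452 in *Escherichia coli* (A2820 and C2821 in yeast), where inhibitors such as anisomycin are known to bind. DMS methylates the base-pairing edge of A and C where it is not covered, so a base pair, a fold of the RNA or a bound drug can lower the rate. Several bases of this stretch carry methyl groups of the cell's own.

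In the genome the stretch corresponds to chrXII:452183-452382 on the minus strand (build R64, which sacCer3 denotes) in RDN25-1, which is the first of the annotated 25S genes. That gene is an rRNA gene without coding sequence, it spans 451786 to 455181, and reads from the repeated rDNA copies were not told apart. The whole stretch is shown because the reactive bases lie scattered in it. Written as in the deposited table, with T for U and 5′ to 3′, it is given with the 12 tested nucleotides in capitals. The shorter windows hold the nucleotides that the results turn on, with those nucleotides in capitals.
25S 2800 to 2999: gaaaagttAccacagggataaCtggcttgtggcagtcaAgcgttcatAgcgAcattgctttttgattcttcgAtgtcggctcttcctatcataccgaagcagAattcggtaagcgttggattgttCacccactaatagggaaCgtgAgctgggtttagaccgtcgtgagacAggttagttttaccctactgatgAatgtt
A2820 and C2821, the A-site cleft: acagggataACtggcttgtgg
A2838, U2843, A2847 and A2851, helix 89: gtcaAgcgtTcatAgcgAcatt
U2921 to C2925, the A loop between the strands of helix 92: tggatTGTTCaccca
A2941, C2942 and A2946, before and in helix 90: agggaACgtgAgctggg

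Most A and C of the stretch had low rates with DMS. Of 49 adenosines, 10 (20.4%) had a rate with DMS and no addition at least 10-fold above that without DMS, against 31.3% of all adenosines in the table. Of 40 cytidines 3 did (7.5%), against 10.8% of all cytidines. The median adenosine rose from 0.0363% without DMS to 0.165%, and the median cytidine from 0.0594% to 0.0993%. Drug effects were tested at each A or C whose rate averaged at least 0.5% over the 7 DMS libraries. These were 12 of the 89 A and C members (13.5%), against 20.3% in the whole table, 12.6% in the 200 nucleotides just upstream and 27.3% in the part of domain V before those. The other 77 had mean rates of 0.0412% to 0.438%, with a median of 0.122%. A2969 at 0.438% lay just outside the limit and A2994 at 0.540% just inside. No test was made of these shares, since neighbouring nucleotides share a structure.

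**Figure D1:**
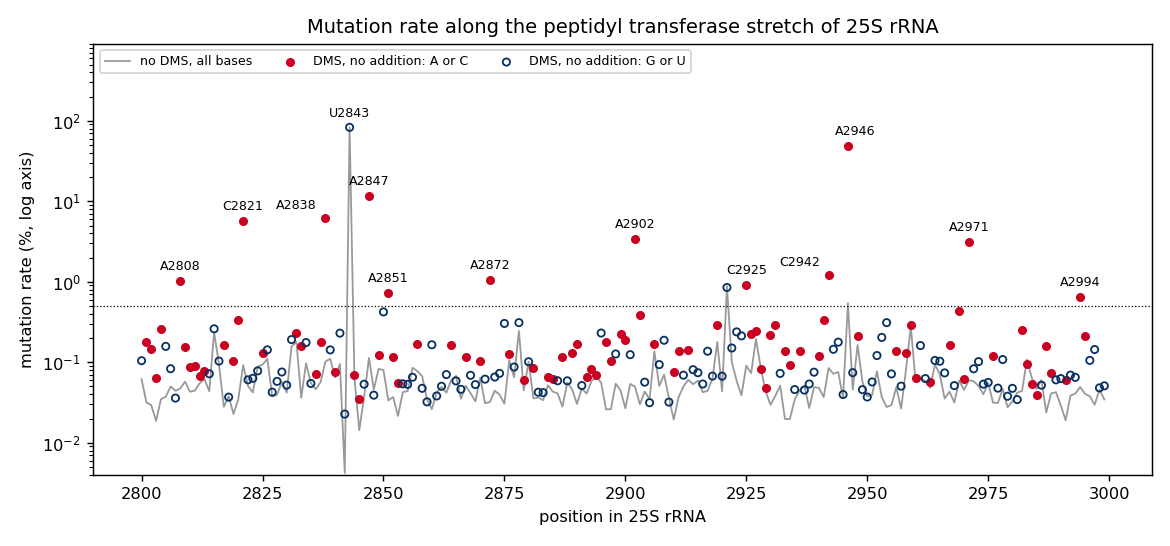
Mutation rate (%, log axis) of each nucleotide by its position in 25S rRNA, with DMS and no addition as points (filled for A or C, open for G or U) and without DMS as a grey line. The dotted line marks 0.5%, and the labelled points are the 12 tested nucleotides and U2843. Most points lie below 0.5%, A2946 stands at 49.3%, and U2843 is as high without DMS as with it.

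The reactive bases were spread over the secondary structure, usually 1 to a segment. Segment borders were recalled from the *E. coli* helix map and are approximate. Helix 89, the long arm that rises from the ring towards the elongation factor side, held 3 of the 12 tested nucleotides among its 17 A and C. The ring itself held C2821 on the strand before helix 89 and A2872 on the strand after it. Helices 91, 92 and 93 held 1 each (A2902, C2925 and A2971). The 5′ strand of helix 90, taken here as C2876 to U2888, held 0 among 6 A and C. Rates with no addition there were 0.0610% to 0.125%.

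A2946 had by far the highest rate of the 12, and ranked 5 by mean rate among all 514 tested nucleotides of the ribosome. It had 0.543% without DMS, 49.3% with no addition, 50.7% with DMSO, 50.7% and 52.1% at 0.5 and 1.0 mM AglA, then 46.1%, 49.5% and 51.6% at 10, 50 and 1000 µM CHX. All 7 DMS libraries lay close together and far above the library without DMS. A2946 is a ribose-methylated adenosine, a modification that leaves the base-pairing edge free. By its letters it stands opposite U2880, a pseudouridine, in helix 90, whose strands (C2876 to C2881, and G2945 to G2950) are complementary at 6 of 6 positions when G with U is counted. Whether the pair forms in these ribosomes was not tested.

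In helix 89, A2838 and A2847 were the next most reactive. A2847 had 0.113% without DMS, 11.6% with no addition, 12.4% with DMSO, then 12.2% with both AglA doses, and 7.72%, 9.63% and 9.05% with 10, 50 and 1000 µM CHX. A2838 had 0.102%, 6.23% and 6.66% in the 3 control libraries in that order, 6.08% and 6.10% with AglA, and 5.15%, 5.40% and 5.11% with CHX. A2851, the third, had 0.0335%, 0.730% and 0.818%, then 0.751% and 0.725% with AglA, and 0.567%, 0.595% and 0.605% with CHX. At all 3 adenosines every CHX library was below every other DMS library in its rate as deposited, which held for 6 of the 12 tested members and for 288 of all 514 tested nucleotides (56%). After the centring on library medians described with the drug comparisons, A2847 alone of the 12 kept it.

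Around the ring all tested bases, C2821 included, were less reactive than A2838 and A2847. A2872 (A2503 in *E. coli*), at the entrance of the peptide exit tunnel, had 0.0320% without DMS, 1.05% with no addition, 1.10% with DMSO, 1.14% and 1.03% with AglA, and 0.937%, 0.909% and 0.975% with CHX. A2971 (A2602), a mobile base between the A and P sites, had 0.0598%, 3.12% and 2.67%, then 2.53% and 2.46% with AglA, and 2.45%, 2.67% and 2.62% with CHX. For A2971 the no-addition library was above the other 6 DMS libraries in the rates as deposited. After centring, the log2 differences from no addition were 0.044, -0.033 and 0.018 with CHX. They were -0.15 with DMSO and -0.16 and -0.22 with AglA.

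The A loop, with 1 base of the kind that DMS reads well, was weakly reactive. That base, C2925, had 0.0908% without DMS, 0.910% with no addition, 0.959% with DMSO, 0.921% and 0.979% with AglA, and 0.700%, 0.765% and 0.762% with CHX. U2921, whose ribose is methylated, had 0.882% without DMS and 0.850% in the no-addition library, and its 7 DMS libraries ranged from 0.850% to 1.01%. The rate without DMS lay inside that range. The remaining 3 bases of the loop (G2922, U2923 and U2924) are G or U and had 0.150% to 0.239% with no addition against 0.0388% to 0.101% without DMS. The recalled strands of helix 92 (U2916 to U2920, and A2926 to A2930) are complementary at 4 of 5 positions, with A2919 opposite C2927.

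The other tested bases lay outside the ring. A2902 in helix 91 had 0.0496% without DMS, 3.39% with no addition, 4.07% with DMSO, 3.95% and 3.86% with AglA, and 2.85%, 2.98% and 2.63% with CHX. A2808 in helix 74 had 0.0474%, 1.03% and 0.997%, then 1.23% and 1.29% with AglA, and 0.972%, 1.00% and 1.01% with CHX. A2994, near the start of domain VI, had 0.0493%, 0.646% and 0.529%, then 0.521% and 0.527% with AglA, and 0.442%, 0.565% and 0.551% with CHX. In A2808 the AglA libraries were the 2 highest, and in A2902 the DMSO and AglA libraries lay above the rest.

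**Figure D2:**
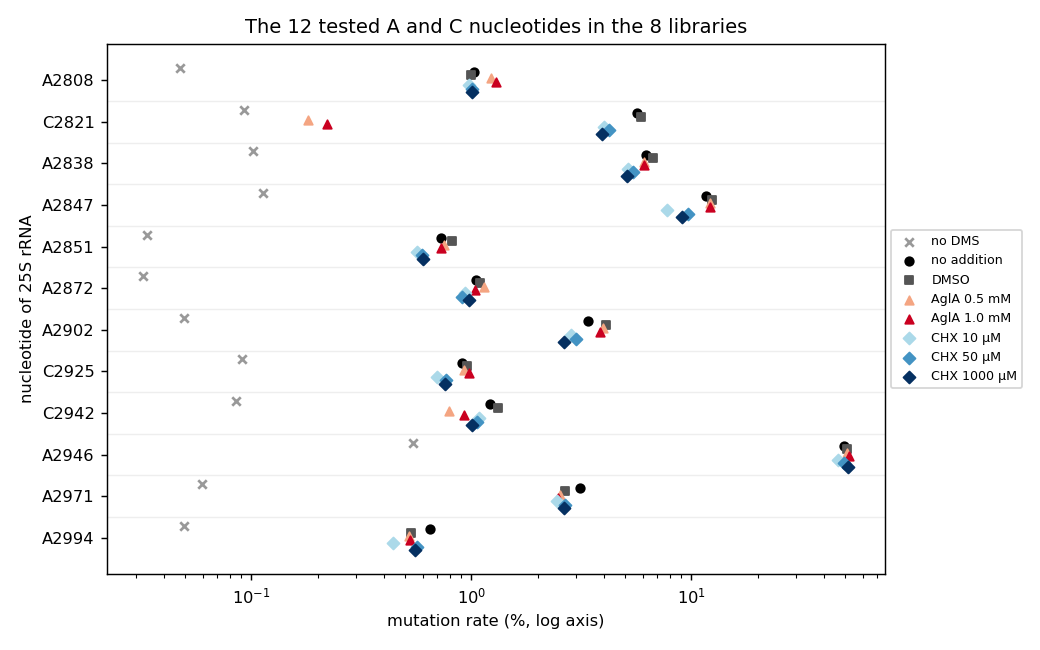
Mutation rate (%, log axis) of the 12 tested nucleotides in each of the 8 libraries, 1 point per library. C2821 is the one nucleotide whose AglA points lie near the point without DMS, at 0.180% and 0.221%. At the other 11 no drug library was 2-fold or more away from both libraries without drug. Among these, C2942 was 0.787% at 0.5 mM AglA against 1.33% with DMSO, and A2847 was 7.72% at 10 µM CHX against 12.4%.

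Between the 2 libraries without drug the tested bases differed little, which sets the scale for the drug comparisons. Differences are given on a log2 scale after adding 0.1 percentage points to each rate, relative to the median of each library over the 514 tested nucleotides. The standard deviation of DMSO minus no addition was 0.14 over the 12 members and 0.19 over all 514. The members ranged from -0.19 at A2994 to 0.32 at A2902, followed by A2851 (0.21), C2942 (0.18) and A2838 (0.16). Of all tested nucleotides 2 (0.389%), A971 of 18S and C439 of 25S, differed by at least 2-fold, and 0 of the 12 members did. With 1 library per condition no p-value is given for any difference, and no comparison has a replicate check.

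C2821, in the A-site cleft, was almost unreactive with AglA. C2821 had 0.0921% without DMS, 5.68% with no addition, 5.87% with DMSO, 0.180% and 0.221% at 0.5 and 1.0 mM AglA, then 3.99%, 4.23% and 3.92% at 10, 50 and 1000 µM CHX. The AglA libraries lay near the library without DMS and far below the other 5. The DMSO rate was 32.5 and 26.6 times the AglA rates, and the log2 difference from DMSO was -4.35 and -4.17. The doses differed from each other by 0.18. Between the libraries without drug the standard deviation was 0.14 over the 12 members and 0.19 over all 514. Those come from bases averaging at least 0.5%, so they do not cover rates as low as these 2. C2821 was the 1 member of 12 to be 2-fold or more away from each of the 2 libraries without drug, at each AglA dose. In the whole table that was also 1 of 514 nucleotides (0.195%) lower and 0 (0%) higher in each AglA library, so no tested nucleotide elsewhere was called.

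The nucleotides on either side of C2821 did not move alike. A2820 had 0.0349% without DMS, 0.337% with no addition, 0.274% with DMSO, 0.152% and 0.149% with AglA, and 0.212%, 0.269% and 0.261% with CHX. The AglA rates were the lowest of the 7 DMS libraries, with DMSO 1.80 and 1.84 times as high and no addition 2.22 and 2.26 times. A2819 had 0.104% and 0.118% in the no-addition and DMSO libraries against 0.122% and 0.0959% with AglA, and U2822 had 0.0606% and 0.0532% against 0.0548% and 0.0775%. At both of these the AglA and control rates overlapped, and G2823 stayed between 0.0406% and 0.0632% in all 7.

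A further pair of neighbours, A2941 and C2942, was also lower with AglA, by less than C2821. They lie on the strand just before helix 90, and C2942 (C2573 in *E. coli*) is known from the path of the incoming aminoacyl end. C2942 had 0.0849% without DMS, 1.21% with no addition, 1.33% with DMSO, 0.787% and 0.923% with AglA, and 1.08%, 1.06% and 1.01% with CHX. Its log2 difference from DMSO was -0.62 and -0.43, and from no addition -0.44 and -0.25, short of 2-fold. A2941 had 0.0370%, 0.340% and 0.219% in the 3 control libraries, 0.122% and 0.116% with AglA, and 0.249%, 0.256% and 0.242% with CHX. Both bases had their 2 lowest DMS rates in the AglA libraries, and at A2941 the DMSO rate was 1.80 and 1.89 times the AglA rates, the no-addition rate 2.79 and 2.93 times. The libraries without drug themselves differed at A2941, with a log2 difference of -0.40 for DMSO minus no addition. Its log2 difference from DMSO with AglA was -0.46 and -0.51. A2941 is outside the tested set, so the standard deviations given above do not cover it.

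These 4 nucleotides had the 4 widest gaps among A and C that were lower with AglA than in all other DMS libraries, on the centred scale with 0.1 percentage points added. The measure, chosen after the values were seen, was the gap between the higher AglA library and the lowest of the other 5 DMS libraries on the centred log2 scale, over the 1595 A and C whose rate averaged 0.1% or more. Both AglA libraries were below all others at 113 of them (7.08%), and at 6 of 59 members (10.2%), a share near the background. The gap was 3.80 at C2821, 0.51 at A2820, 0.46 at A2941 and 0.25 at C2942, ranks 1 to 4 of 113, and the next was 0.13 at A159 of 25S. The other 2 members were A2995 (0.065, rank 33) and A2971 (0.0099, rank 93). Without centring the ranks of C2821, A2941, A2820 and C2942 were 1, 2, 3 and 11 of 61. With 1 percentage point added in place of 0.1, C2821, C2942, A2820 and A2941 ranked 1, 2, 3 and 6 of 68, with gaps of 2.11, 0.129, 0.103 and 0.0772. In the upward direction the widest gap among A and C was 0.29, at A1005 of 18S, above that of C2942. Among the tested nucleotides alone, 63 of 514 (12.3%) had both AglA libraries lowest after centring, 3 of them members (C2821, C2942 and A2971). Without centring 28 of 514 (5.45%) did, 2 of them members (C2821 and C2942).

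**Figure D3:**
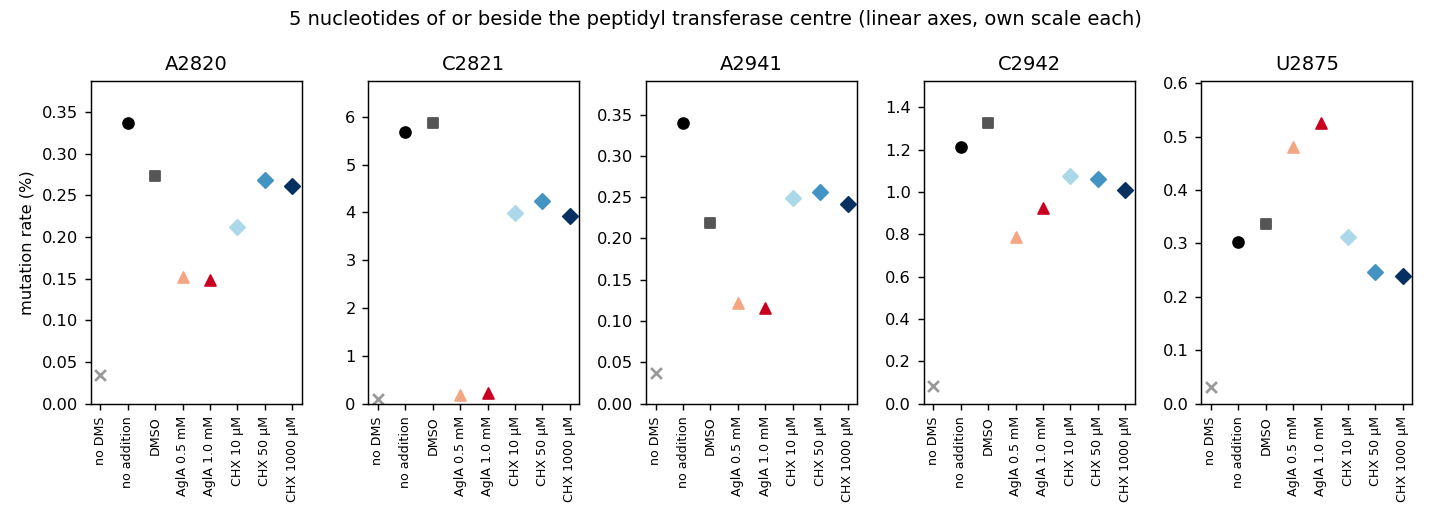
Mutation rate (%, linear axes from 0, a scale for each panel) of A2820, C2821, A2941, C2942 and U2875 in the 8 libraries, 1 point per library. Both AglA points are the lowest of the DMS libraries in the first 4 panels and the highest at U2875, where they are 0.481% and 0.525%.

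**Figure D4:**
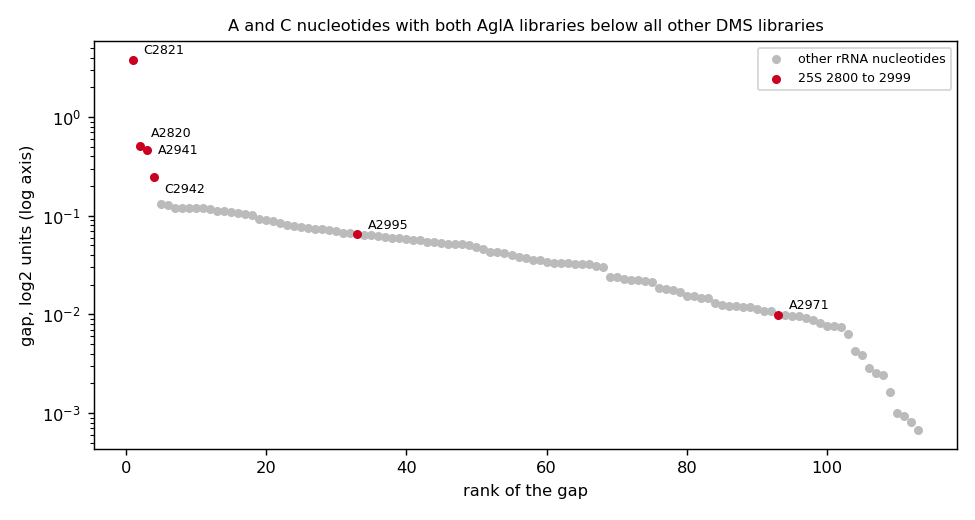
Gap between the higher AglA library and the lowest other DMS library (log2 units, log axis) by its rank. Shown are the 113 A and C nucleotides of all rRNAs where both AglA libraries were lowest after centring. Members are red, and the first 4 ranks are C2821, A2820, A2941 and C2942, from 3.80 down to 0.25, above the 0.13 of the next nucleotide.

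One uridine of the ring went the other way. DMS acts weakly on the base-pairing edge of U and G, and such bases were outside the tested set. U2875 (U2506 in *E. coli*), which borders the A-site cleft, had 0.0305% without DMS, 0.304% with no addition, 0.336% with DMSO, 0.481% and 0.525% with AglA, and 0.311%, 0.247% and 0.239% with CHX. The AglA libraries were the 2 highest, with log2 differences from DMSO of 0.48 and 0.57 and from no addition of 0.65 and 0.74. Of 890 G and U averaging 0.1% or more, 15 (1.69%) had both AglA libraries above all others, and U2875 was the 1 of 27 members there, with the widest gap of the 15 (0.25). In the other direction 23 of 890 (2.58%) had both AglA libraries lowest, among them 2 members. These were U2923 of the A loop, a pseudouridine, with 0.170% and 0.187% against 0.183% to 0.244% in the other 5 DMS libraries, and U2953, with 0.143% and 0.162% against 0.147% to 0.204%. The deposited rates of those overlap with CHX, so that their separation came from centring.

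Read at the level of the list, 4 of the 13 listed nucleotides of the peptidyl transferase centre were tested (C2821, A2872, C2942 and A2971), and 1 was called with AglA. The median log2 difference of the 12 members from DMSO was 0.017 and -0.028 at 0.5 and 1.0 mM, beside -0.00065 and -0.0022 over all 514 tested nucleotides. Higher rates with AglA were led by A2808, at 0.34 and 0.39 above DMSO and 0.37 and 0.41 above no addition. On the centred scale A2946, C2925 and A2847 were also above both controls at both doses, by 0.012 to 0.21. That made 4 of 12 members beside 136 of 514 nucleotides (26.5%). The members below both controls at both doses were C2821, C2942 and A2971, 3 of 12 beside 95 of 514 (18.5%). After centring, A2808, A2847 and C2925 had both AglA libraries above all others, 3 of 12, where 73 of 514 did (14.2%). Without centring A2808 alone did, 1 of 12, beside 39 of 514 (7.59%). Over the wider set of 1595 nucleotides, 5 of 59 members (8.47%) and 117 in all (7.34%) had this after centring. Without centring it was 6 of 59 members and 158 in all (9.91%).

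CHX, whose known pocket is in the E site upstream of this stretch, left all 12 members short of a 2-fold difference. In each CHX library 1 of 514 nucleotides (0.195%), C2764 of 25S, was at least 2-fold lower than both controls and 0 (0%) were higher, and 0 of the 12 members were among them. The CHX libraries as a whole had lower rates, with medians over the 514 nucleotides of 1.31%, 1.52% and 1.44% at 10, 50 and 1000 µM against 1.66% with DMSO. Relative to those medians, the members' own median differed from DMSO by -0.0049, -0.17 and -0.13, beside 0.0055, -0.020 and -0.0026 over all 514. From no addition it differed by 0.084, -0.012 and 0.021.

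After centring, 2 of 12 members were lower than both controls at every CHX dose, beside 44 of 514 nucleotides (8.56%), and 2 were higher, beside 116 (22.6%). C2821 had log2 differences of -0.23, -0.34 and -0.37 from DMSO and of -0.12, -0.23 and -0.26 from no addition at 10, 50 and 1000 µM. At A2847 they were -0.36, -0.23 and -0.25 from DMSO and -0.21, -0.086 and -0.099 from no addition. Beside the standard deviation of 0.14 between the 2 libraries without drug these are up to 0.37 in size, and at C2821 they were small beside those with AglA. A2847 was the 1 member of 12 with all CHX libraries below every other DMS library, where 32 of 514 (6.23%) had this. The AglA libraries count among the others, so C2821, far lower with AglA, could not meet this rule. Of the 12, 0 had all CHX libraries above, against 76 of 514 (14.8%). A2946 and A2808 were higher than both controls by 0.089 to 0.33.

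In the wider set of A and C nucleotides the counts for CHX turned on centring. All CHX libraries were below every other DMS library at 1 of 59 members, beside 34 of 1595 nucleotides (2.13%), and above at 11 of 59, beside 302 (18.9%). Without centring 12 of 59 members were below, beside 472 of 1595 nucleotides (29.6%), and 1 of 59 was above, beside 12 (0.752%). The 1 was A2890 of helix 91, with 0.169% and 0.147% without drug, 0.151% and 0.137% with AglA, and 0.170%, 0.200% and 0.204% with CHX.

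The one high uridine, U2843 in the apical part of helix 89, is methylated by the yeast cell on its base-pairing edge (m3U). It had 82.9% without DMS, 82.9% with no addition, 82.6% with DMSO, 82.8% and 83.8% with AglA, and 77.0%, 78.2% and 78.7% with CHX. DMS and AglA left it within 1.11 percentage points, while every CHX library was lower, and the highest of these was 3.95 points below the lowest of the other 5. Of the 6 nucleotides in the table with at least 10% without DMS, 2 had all CHX libraries below all 5 others, U2843 and U1191 of 18S, where the step was 1.18 points. The m3U U2634 of 25S, outside the stretch, instead fell from 83.5% without DMS to between 63.5% and 66.7% in all 7 DMS libraries. Read depth is not in the table, so the error of these steps cannot be given.

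**Figure D5:**
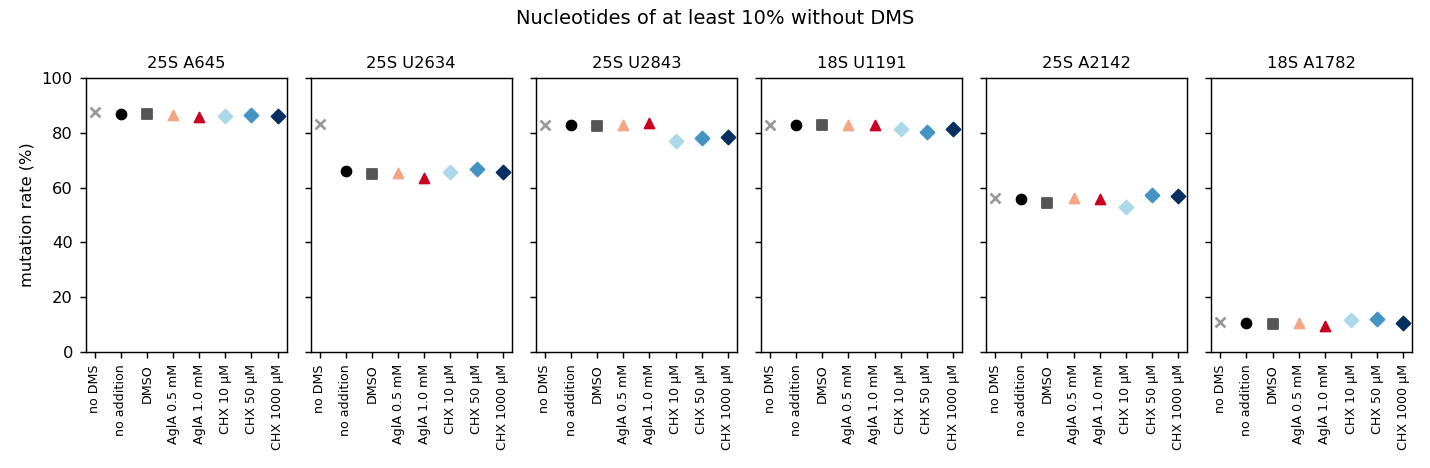
Mutation rate (%) of the 6 rRNA nucleotides with at least 10% without DMS, in each of the 8 libraries, 1 point per library. U2843 lies at 82.6% to 83.8% in 5 libraries and at 77.0% to 78.7% with CHX, while U2634 drops in all DMS libraries.

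The other modified bases of the stretch lay far below U2843 in the library without DMS. Of 14 listed, 3 had at least 0.5% there (U2843, U2921 and A2946). The remaining 11, among them the m5C C2870 at 0.0646%, had 0.0550% to 0.279%. Each lay above the median without DMS of its base in the stretch, 0.0507% for G, 0.0594% for C and 0.0425% for U. The highest were C2959 (0.279%), G2815 (0.235%) and C2948 (0.164%). The 11 comprised 6 pseudouridines, 4 ribose-methylated bases and C2870, and with DMS and no addition they had 0.0562% to 0.294%.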

How the data were processed

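Mutation rates came from 1 table for the whole series whose 8 value columns bear the sample titles. The values deposited by the authors are a fraction per nucleotide, printed here as percentages. Per the labels' protocols, rRNA was fragmented with zinc chloride, size-selected and reverse-transcribed with TGIRT-III, and full-length cDNA was kept. Per the submitters' processing notes, cutadapt, Bowtie2 and sacCer3 were used; versions and any filter on depth or base quality: not given in the sources used here. Depth is unknown, so no counting interval could be given.

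Rates were taken as log2(rate + 0.001) minus the library median over the tested nucleotides of all rRNAs, which were A and C with a mean of at least 0.005 over the 7 DMS libraries. A nucleotide was called at a log2 ratio of at least 1 in size, of 1 sign against each of the libraries without drug (DMSO and no addition). Doses were not used as replicates. Nucleotides named were those called with their neighbours, the most reactive, the structural lists, and those furthest from the controls by sign at every dose. A2820, A2941, A2890, A2995, the nucleotides outside the stretch and all gap measures were chosen after their values were seen, and U2875 was followed across the drugs after that too. Members and lists were chosen with earlier results of these data known. The lists of structure and modification were recalled from memory, and all bases matched the table. Alternatives changed the added constant, filter, centring, control and fold. Python 3.11.15, numpy 2.4.6, pandas 2.3.3 and matplotlib 3.10.9 were used. Gene positions are those of RefSeq R64.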

Additional observations from a re-analysis of the deposited data

Results flagged for a closer look

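Some uridines of the stretch, outside the tested A and C nucleotides, had a signal with DMS above the library without DMS. They were noted where the rate was at least 5 times that without DMS in both the no-addition and the DMSO library. In the no-addition library alone, 6 of 60 uridines of the stretch met this limit, beside 72 of 1451 uridines in the whole table. For guanosines it was 1 of 51, beside 86 of 1495. U2954 (U2585 in *E. coli*), between the A and P sites, had 11.2 times with no addition, at 0.311% against 0.0278%. U2875 had 9.94 times, and U2860 in helix 89 had 6.31 times, at 0.165% against 0.0261%. U2954 had 0.367% with DMSO, 0.322% and 0.313% with AglA, and 0.267%, 0.296% and 0.273% with CHX. G2850 of helix 89 had 0.422% with no addition against 0.0800% without DMS, and was 4.96 times as high with DMSO.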

How the results depend on the processing

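The count of called members, 1 in each AglA library and 0 in each CHX library, was the same under all 9 alternatives, with C2821 as the member. The size at C2821 depended on the constant added, with -4.88 and -4.62 at 0.5 and 1.0 mM AglA for 0.0001 and -2.50 and -2.46 for 0.01. Subtraction of the rate without DMS gave -4.93 and -4.66. Without centring the members' median log2 ratio to DMSO was -0.322 at 10 µM CHX and -0.331 at 1000 µM. A 5-fold limit gave 36 members higher with DMS in place of 14, and the DMSO library gave 15. The 36 were 24 of 49 A, 5 of 40 C, 1 of 51 G and 6 of 60 U. In the whole table the 5-fold limit was met by 737 of 1453 A, 151 of 1076 C, 86 of 1495 G and 72 of 1451 U. At 10-fold with no addition the whole-table shares were 31.3% of A, 10.8% of C, 1.27% of G and 0.896% of U. The other planned values stayed within 0.19 of the main ones, the standard deviation between the 2 libraries without drug over all tested nucleotides. The members with both AglA libraries lowest numbered 6 of 59 at a mean rate of at least 0.1%. They numbered 4 of 59 without centring, 7 and 5 of 59 with constants of 0.0001 and 0.01, and 7 of 89 with no filter. These alternatives were chosen after seeing the data. C2821, A2820, A2941 and C2942 were among the members each time. The background count moved as well. Over all rRNAs it was 113 of 1595 A and C (7.08%) in the main setting and 61 of 1595 (3.82%) without centring. It was 118 of 1595 (7.4%) with 0.0001, 68 of 1595 (4.26%) with 0.01 and 122 of 2529 (4.82%) with no filter. In the order main, no centring, 0.0001, 0.01 and no filter, A2820 ranked 2, 3, 3, 3 and 2, A2941 ranked 3, 2, 2, 6 and 3, and C2942 ranked 4, 11, 4, 2 and 4, so without centring and with 0.01 the 4 were not the first 4. Low rates such as those of A2820 and A2941 rest on an unknown number of reads, and no replicate library was there to test them. Whether mismatches at adjacent positions came from the same reads was not tested.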
